A study of Homo sapiens with 18 samples.

Results

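RB1, CDKN2A, CDKN2B, CDKN1A, MYC, MYCN and AURKA are tumour suppressors and oncogenes known from prostate cancers that change lineage under therapy. These 7 genes, chosen by name out of 20037 protein-coding RefSeq genes on chromosomes 1 to 22, X and Y, were followed through chromatin immunoprecipitation sequencing of H3K4me3 and H3K27me3. The cells were V16D, a castration-resistant prostate cancer line that came from LNCaP. They were transduced either with a control lentivector (V16D/CTL) or with a lentivector that overexpresses the long noncoding RNA H19 (V16D/H19), in 3 biological replicates per group, each with its own input library. All groups therefore carry a vector, and the RNA of the genes was not analysed here. For each gene, every peak from 3 kb upstream to the gene end (GRCh38) was taken from the 12 peak lists. RB1, MYCN, MYC and CDKN1A lie on the plus strand, and CDKN2A, CDKN2B and AURKA on the minus strand.

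H3K4me3 sits at the starts of genes that are active or poised, and H3K27me3 is laid down by the Polycomb complex PRC2 over silent genes. A start with both marks is called bivalent. RB1 encodes the retinoblastoma protein, which holds E2F transcription factors in check until cyclin-dependent kinases phosphorylate it. CDKN2A, CDKN2B and CDKN1A encode inhibitors of those kinases. CDKN2A has a separate start for each of its products, with ARF read from the upstream start and INK4A from the internal one. MYC and MYCN are related transcription factors, MYC in most proliferating cells and MYCN mainly in neural and neuroendocrine ones. AURKA encodes a mitotic kinase that also stabilises the MYCN protein. Loss of RB1 and gain of MYCN and AURKA are well-known features of neuroendocrine prostate cancer.

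The promoters on which the marks differed among these genes are shown first, from RefSeq on GRCh38.p14, as the 250 bases upstream of a start, read 5′ to 3′ along the gene. Capitals mark CpG dinucleotides. The RefSeq promoter table held 5 of the 7 genes, and no upstream sequence of MYC, AURKA or the RB1 gene start is printed. The 4 sequences contrast a start under H3K27me3 (MYCN), the starts of ARF and INK4A in CDKN2A, and the CDKN1A start at which the H3K4me3 peak began.
MYCN, chr2:15940300-15940549, plus strand: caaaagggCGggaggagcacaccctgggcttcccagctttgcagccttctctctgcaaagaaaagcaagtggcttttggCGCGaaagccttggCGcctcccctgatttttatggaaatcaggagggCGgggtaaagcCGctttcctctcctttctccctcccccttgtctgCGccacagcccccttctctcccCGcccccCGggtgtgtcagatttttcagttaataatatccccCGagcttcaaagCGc
CDKN2A gene start, chr9:21995325-21995574, minus strand: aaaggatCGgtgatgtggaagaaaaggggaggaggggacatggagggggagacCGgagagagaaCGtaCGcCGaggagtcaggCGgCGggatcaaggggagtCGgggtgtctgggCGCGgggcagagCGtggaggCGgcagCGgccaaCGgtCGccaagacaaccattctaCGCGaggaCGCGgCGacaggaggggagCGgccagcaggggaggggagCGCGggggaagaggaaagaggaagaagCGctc
CDKN2A internal start, chr9:21974858-21975107, minus strand: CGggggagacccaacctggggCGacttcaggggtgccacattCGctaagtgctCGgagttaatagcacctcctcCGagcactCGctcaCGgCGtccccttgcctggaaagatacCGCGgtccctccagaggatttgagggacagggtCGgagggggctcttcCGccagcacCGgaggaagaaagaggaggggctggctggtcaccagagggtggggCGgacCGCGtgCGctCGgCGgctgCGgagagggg
CDKN1A downstream start, chr6:36678464-36678713, plus strand: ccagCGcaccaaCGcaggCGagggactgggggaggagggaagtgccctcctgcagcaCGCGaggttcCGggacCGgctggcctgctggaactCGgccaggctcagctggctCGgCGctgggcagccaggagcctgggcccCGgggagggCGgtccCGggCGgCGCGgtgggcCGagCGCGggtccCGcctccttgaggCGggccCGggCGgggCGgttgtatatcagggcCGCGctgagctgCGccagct

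MYCN had the fewest CpG dinucleotides of the 4, with 11, against 24 and 20 at the CDKN2A gene start and internal start and 27 at CDKN1A. The median over 22199 promoter entries of protein-coding genes was 16, so only MYCN fell below it. The same 250 bases upstream of CDKN2B held 18 CpG dinucleotides. The GC box GGGCGG, read on both strands, occurred 3 times at MYCN, 4 times at CDKN1A, 2 times at CDKN2B, once at the CDKN2A internal start and not at its gene start. It was present in 53.7% of all promoter entries. The E-box CACGTG, which reads the same on both strands, was in none of these windows and in 7.37% of all entries. All 6 H3K4me3 lists had a peak over the whole window at each CDKN2A start and at CDKN2B, and over part of the window at CDKN1A. At MYCN an H3K4me3 peak touched the window in 2 lists, and an H3K27me3 peak touched it in 5 and covered it whole in 4.

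The lists held 20000 to 21892 H3K4me3 peaks and 54956 to 72177 H3K27me3 peaks on these chromosomes, and the read depth behind them was not used here. A missing peak is therefore not an absent mark. The H19 gene itself had no peak of either mark within 3 kb in any list, so it gave no check of the group labels. Of the markers, 6 of 6 luminal prostate genes, 0 of 3 leukocyte genes and 1 of 3 fibroblast genes (COL1A1) had a promoter H3K4me3 peak in all 6 libraries. Of 6 neuroendocrine genes SYP, ENO2 and SOX2 did, and CHGA had none in any. CHGB had one in 0 V16D/CTL and 2 V16D/H19 libraries, and NCAM1 in 1 and 2. A promoter H3K27me3 peak was found in 6 libraries at CHGB, NCAM1 and SOX2, in 5 at CHGA, in 3 at ENO2 and in 0 at SYP. The luminal gene KLK2, which encodes a kallikrein, had a shorter H3K4me3 site in V16D/H19 (log2 difference of the covered length −0.44, SE 0.06, limma adjusted p = 0.0218). Its adjusted p was 0.0401 without V16D/H19 replicate 3 and rose to between 0.0501 and 0.0798, past the threshold, without any other single library. The other luminal genes did not pass the test and did not all share its direction. TMPRSS2 had a log2 difference of the covered length of 0.27, and KRT8 and KRT18, at 1 shared site, of 0.06. KLK3, at −0.12, and HOXB13, at −0.05, were negative like KLK2. Whether the shift at KLK2 had a part in the values below was not tested.

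H3K4me3 marked 6 of the 7 genes in every library: RB1, CDKN2A, CDKN2B, CDKN1A, MYC and AURKA. A peak in all 6 libraries was found at 67.9% of 19675 protein-coding genes measured over the same window. MYCN had an H3K4me3 peak in 5 of 6 libraries, with V16D/CTL replicate 2 the exception. H3K27me3 was found at fewer members. RB1, CDKN1A, MYC and AURKA had no H3K27me3 peak in any library, as did 71.9% of all protein-coding genes. MYCN was the only member with an H3K27me3 peak in all 6, which 13.9% of protein-coding genes had. CDKN2A had one in 4 libraries and CDKN2B in 1. The number of members with an H3K4me3 peak was 7, 6 and 7 in V16D/CTL replicates 1 to 3 and 7 in each V16D/H19 library (two-sided exact permutation p = 1). For H3K27me3 it was 2 in each V16D/CTL library and 1, 2 and 2 in V16D/H19 (exact permutation p = 1). With 3 libraries against 3, that test cannot give a p below 0.1.

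Peaks of a mark that shared at least 1 base were joined into sites, and the highest fold over input at a site was taken in each library. The members' H3K4me3 sites fell into an order by their mean fold over input in V16D/CTL. AURKA came highest at 70.9 ± 5.25 (SD, n = 3), before MYC at 64.2 ± 11.5, RB1 at 42.8 ± 10.6, CDKN1A at 41.1 ± 4.99, the CDKN2A gene start at 36.8 ± 16.8, the CDKN2A internal start at 27.4 ± 4.57 and CDKN2B at 25.1 ± 7.7. The ranges of neighbours in this order overlapped, except that the lowest MYC library (54.3) stood above the highest RB1 library (49.1). In V16D/H19 the order began with AURKA at 57.2 ± 7.03, MYC at 54.8 ± 10.2 and RB1 at 53.7 ± 3.82, which overlapped. The fold over input compares a site with its own input, so it does not depend on the length of the gene.

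**Figure D1:**
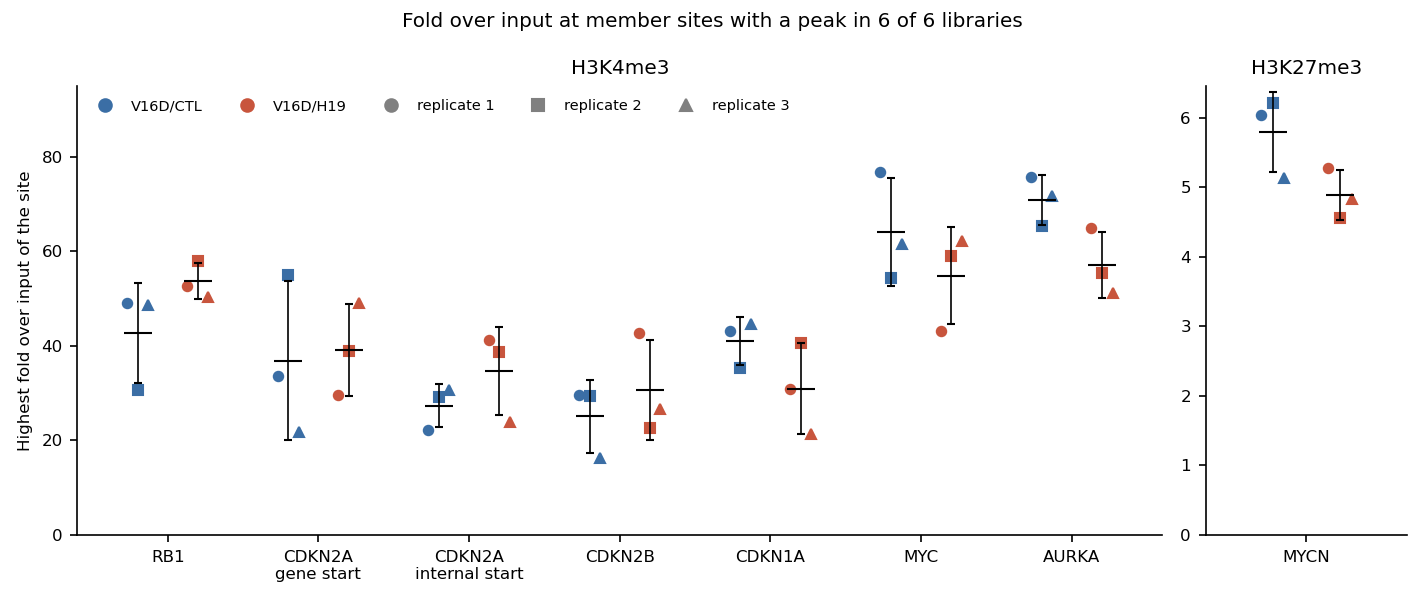
Highest fold over input at each member site with a peak in all 6 libraries (y axes start at 0), for H3K4me3 on the left and H3K27me3 at MYCN on the right. Points are libraries, bars the mean and SD of 3. AURKA libraries lay between 65.3 and 75.7 in V16D/CTL and between 51.2 and 64.9 in V16D/H19. The groups also separated at RB1, in these folds not centred on the library median.

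Each site with a peak in 6 of 6 libraries was tested for a difference between V16D/H19 and V16D/CTL with limma on the log2 fold over input, each library centred on its median. Of 15781 H3K4me3 sites 0 passed an adjusted p of 0.05 (0% called), while 1050 had an unadjusted p under 0.05. Of 10889 H3K27me3 sites 0 passed (0% called), with 812 under 0.05 unadjusted. None of the members' sites was called. The lengths covered by peaks were less variable for H3K4me3 and were tested as a second measure, added after the data were seen. They gave 49 called H3K4me3 sites (0.31%), of which 29 were longer and 20 shorter in V16D/H19, and 7 called H3K27me3 sites (0.0643%). No member was among these 56 sites. Leaving out single libraries gave 20 to 49 called H3K4me3 sites and 0 to 11 called H3K27me3 sites for covered length.

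RB1 lies on the long arm of chromosome 13 (48303751 to 48481890). Each library had a single H3K4me3 peak there, beginning at −1098 to −745 bases from the gene start and running into the gene, over the divergent noncoding gene RB1-DT as well. Its fold over input was 49.1, 30.6 and 48.7 in V16D/CTL replicates 1 to 3 and 52.7, 57.9 and 50.4 in V16D/H19. The groups did not overlap, though the lowest V16D/H19 library was only just above the highest V16D/CTL library. All V16D/H19 libraries were higher than all V16D/CTL libraries at 6.82% of sites. The log2 difference was 0.31 (SE 0.29, 95% interval −0.29 to 0.91, limma adjusted p = 0.887), and 0.088 without V16D/CTL replicate 2, the lowest library. The covered length was 2518, 2205 and 2316 bases in V16D/CTL against 2724, 2277 and 2183 in V16D/H19, and here the groups overlapped. Its log2 difference was 0.02 (95% interval −0.15 to 0.19). The other RefSeq start of RB1, 172699 bases into the gene, had no peak of either mark over its upstream 250 bases. The nearest H3K27me3 peak lay between 499559 and 1254662 bases from the gene.

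CDKN2A (chromosome 9, 21967752 to 21995324) had an H3K4me3 peak at each of its starts in all 6 libraries. The peak at the gene start, which also covers the start of the antisense noncoding gene CDKN2B-AS1, had a fold over input of 33.7, 55 and 21.8 in V16D/CTL against 29.5, 38.9 and 49 in V16D/H19. The spread within a group was wider than the distance between the groups, with a log2 difference of 0.11 (SE 0.34, 95% interval −0.59 to 0.81, limma adjusted p = 0.972). At the internal start, 20467 bases downstream, the fold was 22.1, 29.2 and 30.7 in V16D/CTL against 41.3, 38.7 and 24 in V16D/H19. There 2 V16D/H19 libraries were above all V16D/CTL libraries and replicate 3 was not. The log2 difference was 0.27 (SE 0.32, 95% interval −0.4 to 0.93, adjusted p = 0.918). It was 0.084 without V16D/CTL replicate 1, 0.11 without V16D/H19 replicate 1 and 0.49 without V16D/H19 replicate 3. The peak was also the shorter of the pair, 1336 to 1762 bases against 3349 to 3510 bases at the gene start. The covered length at the internal start was 1508, 1418 and 1336 bases in V16D/CTL against 1469, 1762 and 1517 in V16D/H19 (log2 difference 0.15, 95% interval −0.05 to 0.34, adjusted p = 0.604).

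H3K27me3 at CDKN2A was weak and not the same between libraries. V16D/CTL replicate 1 had 1 peak of 1222 bases with a fold of 3.39, and it began inside the internal H3K4me3 peak, sharing 410 bases with it. The marks also shared 65 bases in V16D/CTL replicate 2 and 110 bases in V16D/H19 replicate 2. V16D/CTL replicate 2 had 3 peaks of 320 to 559 bases, V16D/H19 replicates 2 and 3 had 1 peak each, and V16D/CTL replicate 3 and V16D/H19 replicate 1 had none. The −log10 q of these 6 peaks was 1.48 to 2.78, in lists whose lowest value was 1.03 or less. The H3K27me3 bases over the gene window were 1222, 1299 and 0 in V16D/CTL against 0, 397 and 331 in V16D/H19 (exact permutation p = 0.4, in 1 of 3 such tests).

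CDKN2B (chromosome 9, 22002903 to 22009313) stands next to CDKN2A, and the noncoding gene CDKN2B-AS1 runs antisense across it, so that peaks there cannot be assigned to either. Its start had a single H3K4me3 peak in each library, with a fold over input of 29.7, 29.4 and 16.2 in V16D/CTL against 42.7, 22.6 and 26.7 in V16D/H19. The groups overlapped, and the log2 difference was 0.24 (SE 0.34, 95% interval −0.46 to 0.94, limma adjusted p = 0.931). Its covered length was 1524, 1635 and 1712 bases in V16D/CTL against 1710, 1782 and 1499 in V16D/H19 (log2 difference 0.03, 95% interval −0.15 to 0.2). One H3K27me3 peak of 440 bases was found, in V16D/CTL replicate 3 alone (exact permutation p = 1).

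The wider neighbourhood of CDKN2A and CDKN2B on the short arm of chromosome 9 held 8 H3K4me3 sites with a peak in all libraries within 1 Mb of the CDKN2A gene start, 3 of them the sites above. All 8 had a positive log2 difference of the fold, from 0.11 to 0.47, and all 8 a positive log2 difference of the covered length. None was called (lowest adjusted p = 0.815 for the fold), and at each of the 8 the folds of the groups overlapped. The median centred log2 fold of the 8 sites was −0.63, −0.35 and −0.93 in V16D/CTL against −0.29, −0.48 and −0.56 in V16D/H19, which also overlapped (exact permutation p = 0.4). The median log2 difference of all 170 sites on that arm was −0.01.

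CDKN1A (chromosome 6, 36676463 to 36687332), which encodes a kinase inhibitor induced by DNA damage, had no H3K4me3 peak at the 5′ end of its RefSeq gene. Its peak began 2055 to 2234 bases downstream, across the start whose promoter is printed above, which lies 2251 bases into the gene, and ended 4489 to 4728 bases into it. The fold over input was 43.3, 35.4 and 44.6 in V16D/CTL against 30.9, 40.7 and 21.3 in V16D/H19. V16D/H19 replicate 2 fell within the V16D/CTL range and the other two below it. The log2 difference was −0.50, below all but 8.43% of fitted sites, and its interval included 0 (SE 0.32, 95% interval −1.14 to 0.15, limma adjusted p = 0.809). Without V16D/H19 replicate 3 it was −0.28. The covered length pointed the other way, with 2272, 2319 and 2473 bases in V16D/CTL against 2624, 2460 and 2376 in V16D/H19 (log2 difference 0.07, 95% interval −0.05 to 0.2, adjusted p = 0.721). The nearest H3K27me3 peak was at least 117401 bases away in every library.

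**Figure D2:**
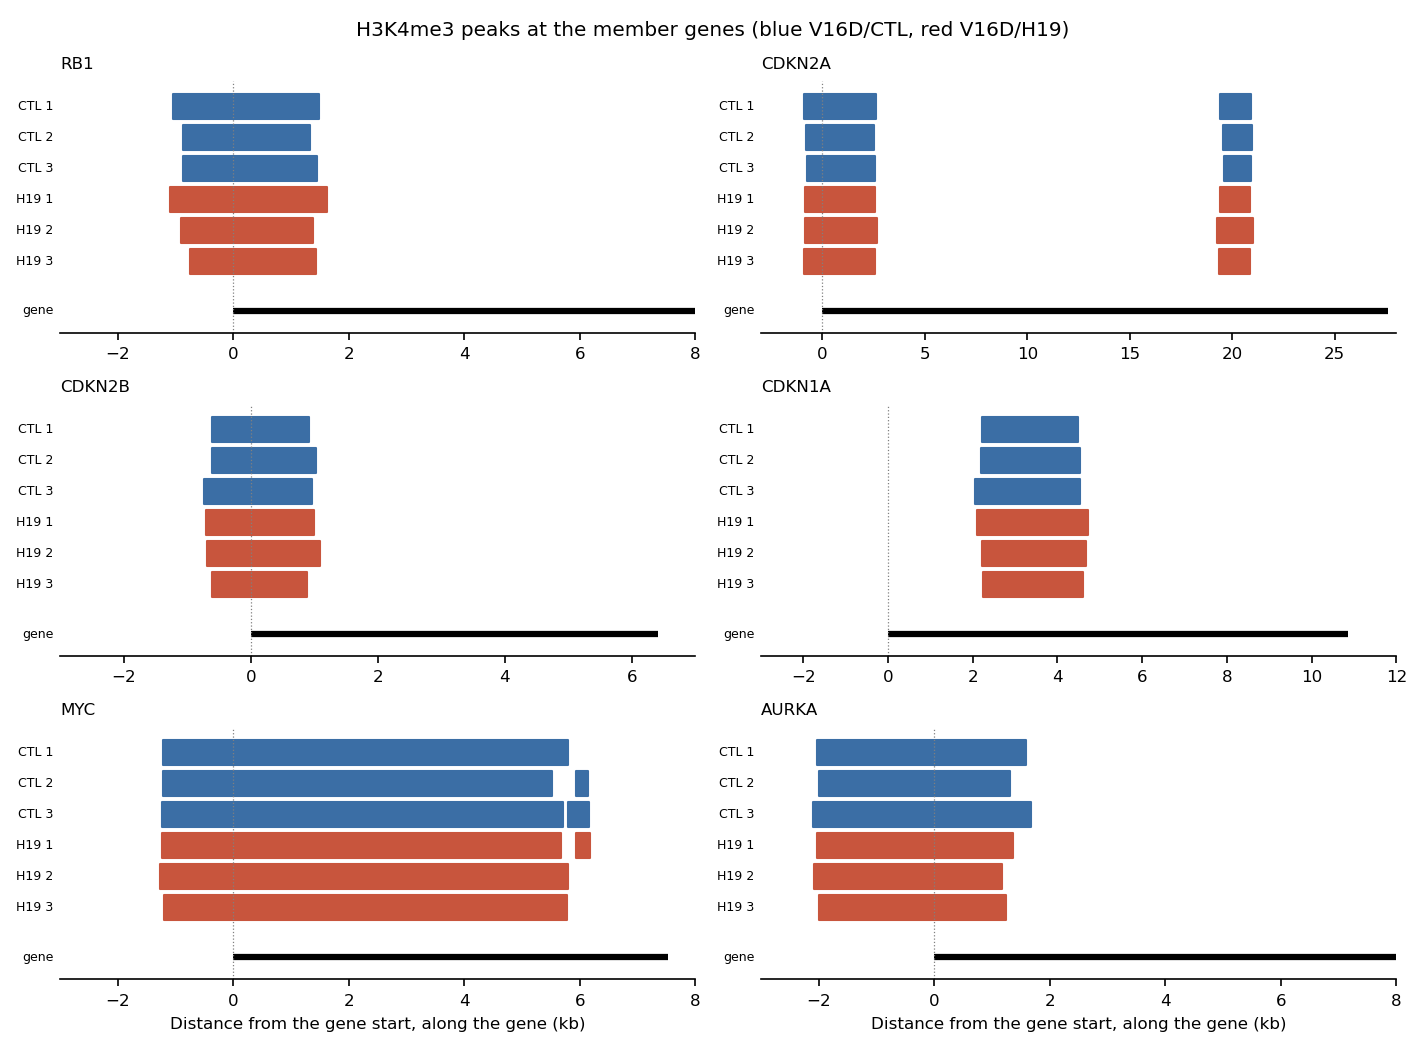
H3K4me3 peaks (bars) of each library along 6 member genes, in kb from the gene start, with V16D/CTL in blue, V16D/H19 in red and the gene as a black line, cut at the right edge for RB1 and AURKA. Peaks cross the gene start at all genes but CDKN1A, where they begin 2055 to 2234 bases into the gene, CDKN2A has a peak at each start, and the MYC peak runs to 5519 to 5792 bases past the start.

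MYC (chromosome 8, long arm, 127735434 to 127742951) carried one of the broadest H3K4me3 peaks of each list. The main peak was 7006, 6738 and 6936 bases in V16D/CTL against 6922, 7064 and 6976 in V16D/H19, a width percentile of 99.9 in every list, while its fold exceeded that of 69.6% to 96.3% of the peaks. It began at −1271 to −1199 bases from the gene start and ran across most of the gene, and 3 libraries had a further small peak behind it. The fold over input was 76.7, 54.3 and 61.5 in V16D/CTL against 43.2, 59.1 and 62.2 in V16D/H19. V16D/H19 replicate 1 was the lowest and V16D/CTL replicate 1 the highest, and the other 4 libraries mixed. The log2 difference was −0.28 (SE 0.26, 95% interval −0.82 to 0.26, limma adjusted p = 0.888). It was −0.13 without V16D/H19 replicate 1 and −0.18 without V16D/CTL replicate 1. The covered length was 7006, 6946 and 7307 bases in V16D/CTL against 7157, 7064 and 6976 in V16D/H19, a log2 difference of −0.01 with a 95% interval of −0.11 to 0.09 (adjusted p = 0.971). The closest H3K27me3 peak lay 661562 to 989666 bases from the gene.

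MYCN (chromosome 2, 15940550 to 15947004) differed from the other members in both marks. Its main H3K27me3 peak, which crossed the gene start in 5 libraries and began 346 bases into the gene in V16D/H19 replicate 2, was among the strongest and longest of each list, above 98% of peaks in fold over input and 95.5% in width in all libraries. The fold was 6.03, 6.2 and 5.14 in V16D/CTL against 5.28, 4.56 and 4.83 in V16D/H19. The groups overlapped by 1 library each, V16D/CTL replicate 3 and V16D/H19 replicate 1, and the log2 difference was −0.20 (SE 0.11, 95% interval −0.43 to 0.04, limma adjusted p = 0.72).

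The H3K27me3 site at MYCN covered 3623, 3740 and 4147 bases in V16D/CTL against 3052, 2632 and 2728 in V16D/H19, so that the groups did not overlap. In V16D/H19 replicate 2 this was the sum of 2 peaks, of 2193 and 439 bases. All V16D/H19 libraries were shorter than all V16D/CTL libraries at 17.2% of the H3K27me3 sites. Before centring, the median library shift of covered length over all H3K27me3 sites was −0.25 on the log2 scale. Relative to it MYCN differed by −0.20 (95% interval −0.73 to 0.33, adjusted p = 0.817), and by −0.30 without V16D/H19 replicate 1. Over the whole gene window 3623, 4536 and 4441 bases were covered in V16D/CTL against 3412, 2632 and 2728 bases in V16D/H19, with means of 4200 ± 502 and 2924 ± 425 (SD, n = 3). The exact permutation p was 0.1, the smallest it can be, and 0.3 after Benjamini-Hochberg adjustment over the members tested. The V16D/H19 mean was 0.696 times the V16D/CTL mean, against a median of 0.8 over the 2725 protein-coding genes with a peak in all libraries, of which 26.1% also had all V16D/H19 libraries below all V16D/CTL libraries.

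H3K4me3 at MYCN came as small peaks of 205 to 574 bases in 3 places, upstream of the start, at the start and 1345 to 1918 bases into the gene, with no place marked in every library. V16D/CTL had 1 peak in replicate 1, none in replicate 2 and 2 in replicate 3, with a highest fold of 5.02 and 4.83 where found. V16D/H19 had 2, 2 and 1 peaks, with a highest fold of 5.81, 6.87 and 5.36. Each V16D/H19 value was thus above both V16D/CTL values. The highest peaks lay in different places and V16D/CTL replicate 2 had none, so these values do not compare a single site. The fold percentile of these highest peaks in their lists was 20.2, 24.8 and 14.5 in V16D/H19 and 11.7 and 9.46 in V16D/CTL. The second peak of V16D/H19 replicate 2, at a fold of 4.09, lay below both V16D/CTL values. The highest −log10 q was 4.9 and 4.23 in the V16D/CTL libraries with a peak, both under a limit of 5, and 7.21, 9 and 5.4 in V16D/H19, all over it. With that limit MYCN had an H3K4me3 peak in 3 of 3 V16D/H19 and 0 of 3 V16D/CTL libraries, a split seen at 0.229% of protein-coding genes (45 of 19675), and at 15 genes the other way round. For H3K27me3 the −log10 q was 6.26, 6.84 and 5.38 in V16D/CTL against 5, 4.25 and 4.15 in V16D/H19. The same limit left it in 3 of 3 V16D/CTL libraries and 1 of 3 V16D/H19 libraries. Of all 19675 genes 174 (0.884%) had it in all V16D/CTL libraries but not in all V16D/H19 libraries, against 1 gene the other way round. Few genes keep H3K27me3 at this limit. Only 23 sites then had a peak in all 6 libraries, against 10889 without it. The share among genes with such a peak in all V16D/CTL libraries was not counted, so this split does not set MYCN apart. These splits by q were read after the MYCN values were seen, and of their values 4.9, 5.4, 5.38 and 5 lie close to the limit.

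Peaks of both marks overlapped at MYCN in every library that had both. They shared 228 and 627 bases in V16D/CTL replicates 1 and 3 and 779, 574 and 442 bases in V16D/H19 replicates 1 to 3. Of the 8 H3K4me3 peaks 7 touched an H3K27me3 peak of the same library, and the upstream peak of V16D/H19 replicate 2 did not. The noncoding gene MYCNOS runs antisense over the same start, and peaks carry no strand, so the marks cannot be assigned to either gene.

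**Figure D3:**
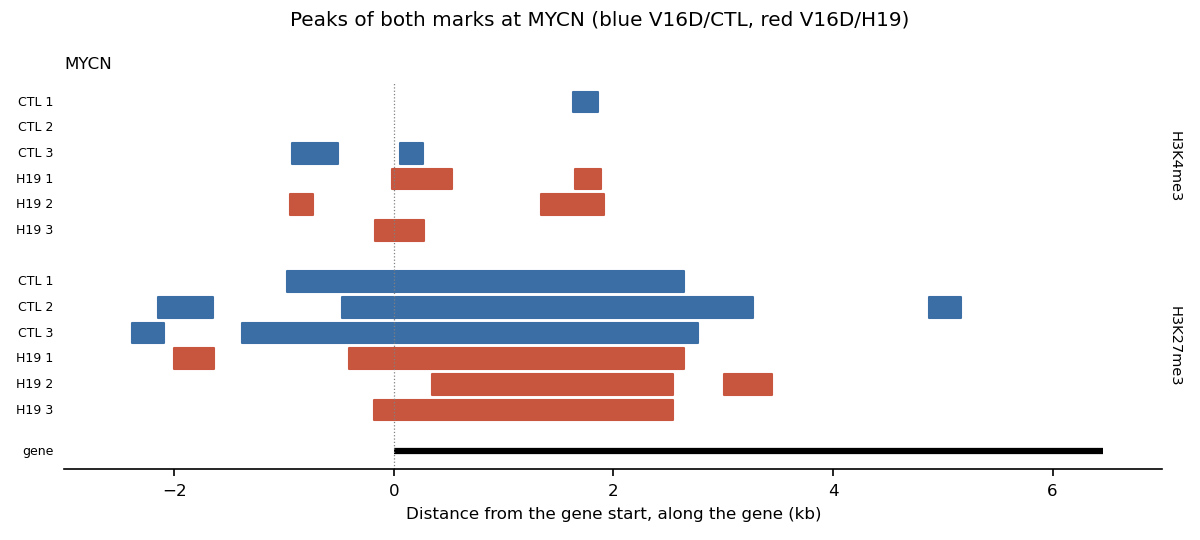
Peaks of H3K4me3 (upper 6 rows) and H3K27me3 (lower 6 rows) at MYCN in each library, in kb from the gene start, with V16D/CTL in blue, V16D/H19 in red and the gene in black. The H3K27me3 site covers 3623 to 4147 bases in V16D/CTL against 2632 to 3052 bases in V16D/H19, and the H3K4me3 peaks are 205 to 574 bases long.

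AURKA (chromosome 20, 56369390 to 56392215) shares its start region with CSTF1, which is transcribed the other way, and a single H3K4me3 peak covered both starts. The fold over input was 75.7, 65.3 and 71.7 in V16D/CTL against 64.9, 55.4 and 51.2 in V16D/H19. All 3 V16D/H19 libraries were below all V16D/CTL libraries, by a narrow margin between V16D/H19 replicate 1 and V16D/CTL replicate 2. At 4.64% of H3K4me3 sites the groups separated in that direction. These folds were not centred on the library median. The median fold of the list was 24.7 in V16D/H19 replicate 1 against 28.7 in V16D/CTL replicate 2. The log2 difference was −0.36 (SE 0.24, 95% interval −0.87 to 0.14, limma adjusted p = 0.818). Covered lengths were 3611, 3316 and 3772 bases in V16D/CTL against 3394, 3251 and 3233 in V16D/H19, which overlapped (log2 difference −0.12, 95% interval −0.24 to 0.00, adjusted p = 0.483). With V16D/CTL replicate 3 left out, covered length differed by −0.072. The nearest H3K27me3 peak was 24523 to 64077 bases from the gene.

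**Figure D4:**
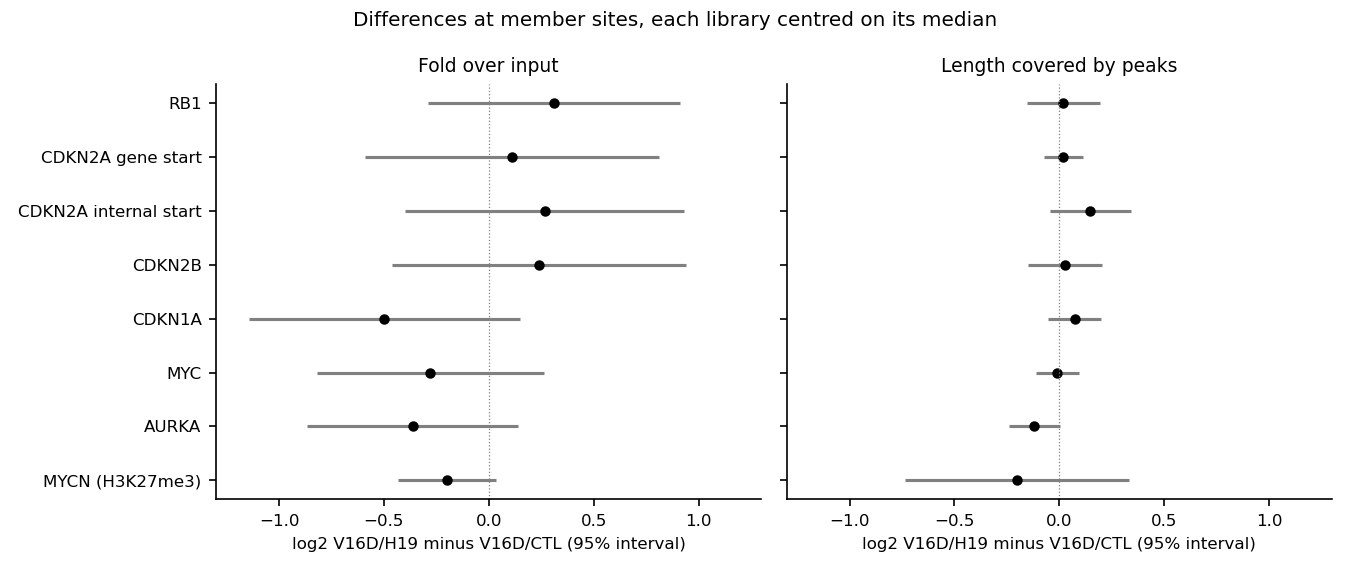
Log2 difference, V16D/H19 minus V16D/CTL, of the fold over input (left) and of the covered length (right) at each member site, with its 95% interval from limma. All intervals include 0, and those of the covered length are the narrower for H3K4me3, such as −0.11 to 0.09 at MYC.

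The deposited tables of differential sites listed 1857 H3K4me3 and 1140 H3K27me3 sites. MYC was the only member named in them, with 1 row of 7659 bases over its promoter in the H3K4me3 table. The authors' mean concentration of that row, the log2 of the normalised read count, was 11.68 in V16D/CTL against 11.31 in V16D/H19. Rows assigned to neighbouring genes covered the starts of 2 further members. A row named CDKN2B-AS1 spanned the CDKN2A gene start, with an authors' mean of 9.76 in V16D/CTL against 9.54 in V16D/H19, and a row named CSTF1 spanned the AURKA start, with 10.33 and 10.16. All 3 were lower in V16D/H19 on that scale. The share of all 1857 rows that were lower was not counted here, so this direction is not read as a trait of the members. The log2 differences of the fold given above were also negative at MYC and AURKA. At the CDKN2A gene start they went the other way, at 0.11 for the fold and 0.02 for the covered length. The H3K27me3 table had no row in any member's window, MYCN included. Of the 20655 H3K4me3 sites that 2 or more libraries shared, 9.37% overlapped a listed row. The tables rest on read counts in peaks, which is another measure than the fold of the highest peak.

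Chromosome arms were set beside MYC and RB1, since a shift of a whole arm would move every site on it. On the long arm of chromosome 8, the 357 H3K4me3 sites had a median log2 difference of −0.07 (middle 80% from −0.45 to 0.40), and 58.8% were lower in V16D/H19, against 52% of all sites. On the short arm the median of 211 sites was 0.07 and 42.7% were lower. MYC, at −0.28, was 0.20 below the median of its arm, above 82 of its 357 sites. The 4 other sites within 1 Mb of MYC had a median of 0.01. On the long arm of chromosome 13 the median of 276 sites was −0.01 (middle 80% from −0.45 to 0.46), and RB1, at 0.31, stood above 224 of them.

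By library, the median centred log2 fold of the short arm of chromosome 8 was −0.24, −0.15 and −0.16 in V16D/CTL against −0.06, −0.06 and −0.01 in V16D/H19, so the groups separated. On the long arm it was 0.15, 0.10 and 0.13 in V16D/CTL against 0.08, 0.09 and 0.11 in V16D/H19, and the groups overlapped. The H3K4me3 fold medians also separated on the short arm of chromosome 2, which holds MYCN, though no MYCN site entered them. The medians were −0.02, −0.01 and 0.03 in V16D/CTL against 0.05, 0.08 and 0.08 in V16D/H19. On the short arm of chromosome 20 they were 0.14, 0.15 and 0.10 against 0.18, 0.17 and 0.20. The lengths of H3K27me3 sites separated on the short arm of chromosome 8, with medians of −0.13, −0.09 and −0.15 in V16D/CTL against 0.28, 0.24 and 0.21 in V16D/H19 over 297 sites. On the long arm, over 593 sites, the V16D/CTL medians of 0.01, −0.02 and 0.03 barely cleared those of V16D/H19 at −0.03, −0.11 and −0.02. On the long arm of chromosome 13, over 142 sites, the V16D/CTL medians of 0.06, −0.03 and 0.11 were above the −0.17, −0.05 and −0.06 of V16D/H19. MYC and RB1 had no H3K27me3 peak, and none of the 7 genes lies on the short arm of chromosome 8. These values are a description of neighbouring sites, which share their libraries. Arms were read only on the chromosomes of the members. The share of all arms on which the groups separate was not counted, so no separation is read as particular to an arm.

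**Figure D5:**
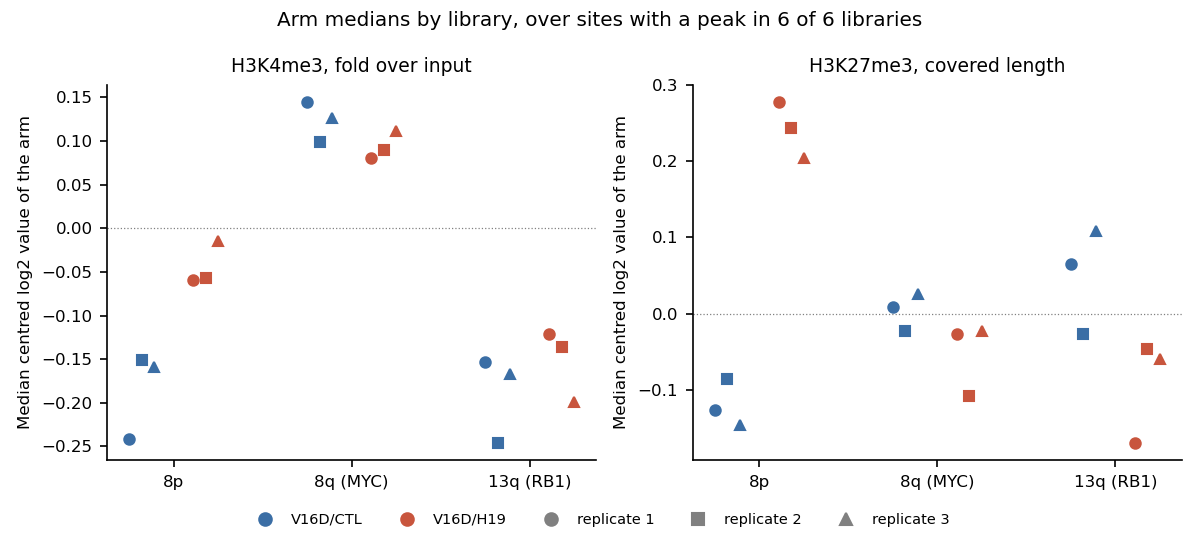
Median centred log2 value of all sites on the short and long arm of chromosome 8 and the long arm of chromosome 13, by library, for the H3K4me3 fold over input (left) and the H3K27me3 covered length (right). The groups separate on 8p in both panels, with H3K4me3 medians of −0.24 to −0.15 in V16D/CTL against −0.06 to −0.01 in V16D/H19, and overlap on 8q, which holds MYC, for the H3K4me3 fold. The H3K4me3 fold medians also separated on the short arms of chromosomes 2 and 20, which are not drawn.

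Genes that act with the members were read at their promoters, within 1 kb of a RefSeq start. All 5 other kinase inhibitors had an H3K4me3 peak in all 6 libraries. So did all 22 genes of the RB pathway (among them E2F and DP factors, RB1 relatives, cyclins and their kinases). All 13 genes of the MYC network (among them MAX and the MYCN relative MYCL) did as well. Of 8 genes of Aurora kinase function 7 did, and AURKC, the germ-cell Aurora kinase, had none in any. In the H3K4me3 fit 0 of their 6, 26, 17 and 7 sites were called by limma, for fold or for length. At an unadjusted p under 0.05 for the fold there was 1 gene, PLK1, a mitotic kinase (log2 difference −0.68, SE 0.31, adjusted p = 0.732). For the covered length there were 7 sites at an unadjusted p under 0.05, none past the adjusted threshold. Over all 15781 H3K4me3 sites, the share with such a p was 6.65% for the fold and 10.5% for the covered length. The log2 difference of the length was positive at CCND2, a D-type cyclin gene (0.78, SE 0.16, adjusted p = 0.0894), and at the RB1 relative RBL2 (0.30, SE 0.07, adjusted p = 0.107). It was negative, from −0.23 to −0.12, at 1 of 2 sites of CDKN2C and at CDKN3, E2F8, CCNA2 and BIRC5, with adjusted p from 0.239 to 0.445. The median log2 differences of the 4 lists were −0.13, −0.10, −0.03 and −0.16, beside −0.02 over all sites.

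H3K27me3 was rare at these promoters. The cyclin gene CCND2, the kinase gene CDK6 and MLXIPL, of the MYC network list, had a promoter peak in 6 of 6 libraries. The kinase inhibitor CDKN1C, an imprinted gene, had one in 5. The remaining 44 genes had none in any library. No site of these genes was called. CCND2 (log2 difference of the fold −0.35, SE 0.11, adjusted p = 0.502) and CDK6 (−0.30, SE 0.11, adjusted p = 0.586), which bind each other, were the only ones at an unadjusted p under 0.05 for the fold. For the covered length there were none. Of all H3K27me3 sites, 7.46% had an unadjusted p under 0.05 for the fold. The genes of the 4 lists named with values, MLXIPL, CDKN1C and AURKC were chosen for naming after their values were seen. CCND2 and CDK6 carried H3K4me3 at their promoters as well, in all 6 libraries.

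The genes closest to each member in promoter pattern were found by Euclidean distance over the 12 libraries of the log2 highest fold, with 0 where there was no peak. CSTF1 had the same values as AURKA because they share a peak, and YWHAB, a 14-3-3 protein gene, was next at a distance of 0.189. MYC was closest to BTBD10 (0.0816) and HSPB1 (0.199), RB1 to NAXD (0.208) and ZC3H6 (0.255), and CDKN1A to MEF2C (0.344) and ACACB (0.358). CDKN2B was closest to SEMA5A (0.584) and DEF6 (0.599), and CDKN2A to GCNT4 (0.697) and then IL17RD (2.02). MYCN had no close match, with CHRDL2 (0.911) and ADRA1D (0.97) nearest. A distance of 1 corresponds to a fold that differs by a factor of 2 in a single library.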

How the data were processed

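H3K4me3 and H3K27me3 were immunoprecipitated from 3 V16D/CTL and 3 V16D/H19 cultures, each with an input library (18 libraries). Per the study's methods and the submitters' processing notes, the authors called peaks in each replicate against its own input with MACS2 on hg38 (narrow for H3K4me3, broad for H3K27me3). The aligner is not given in the sources used here. The deposited fold is the ratio over input, at the summit of a narrow peak or averaged over a broad one. The deposited −log10 p and −log10 q are MACS2's, and the deposited score, a rounded −log10 q, was not used. The deposited differential tables hold log2 mean concentrations per group, made by the authors with DiffBind and annotated with ChIPseeker, and list sites at an adjusted p under 0.05. Their fold changes and p-values, the authors' own comparisons, were not used.

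Peaks on chromosomes 1 to 22, X and Y sharing at least 1 base were joined into sites. For sites with a peak in 6 of 6 libraries, log2 of the highest fold (no pseudocount) was centred on the library median and fitted with limma 3.58.1 (R 4.3.3), both groups, no covariate, Benjamini-Hochberg adjustment over all sites. Single values were compared by two-sided exact permutation. Requiring a peak in every library leaves out sites lost or gained with treatment. The members and gene lists were chosen with earlier results of these data known. Covered length and peak p-value were added as measures after seeing the data. Genes to be named by rule were the members, called genes of the lists (up to 3 in each direction), and the 2 genes of nearest promoter pattern for each member. Gene ends came from RefSeq on GRCh38, as did promoters, and the strands of MYC and AURKA from GENCODE by symbol. In data simulated with log2 changes of 0.5, 1, 1.5 and 2, the H3K4me3 fold fit recovered 0, 6, 32 and 56% of changed sites, and the covered length fit 66, 92, 96 and 92%. Those for H3K27me3 recovered 52, 92, 100 and 100% and 0, 10, 18 and 34%. Scripts ran in Python 3.11.15 with pandas 2.3.3 and scipy 1.17.1. Alternatives covered centring, quantile normalisation, site building, peak limits, window size and leaving out each library.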

Additional observations from a re-analysis of the deposited data

How the results depend on the processing

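Of 216 alternatives of the members' values, 199 kept the direction and the side of the threshold, 13 changed sign, and no member site was called (lowest adjusted p = 0.380). Since no member site was called in the main fits either, keeping the side means only that a site stayed uncalled. For the H3K27me3 bases over the gene window only the direction was compared. Over all fitted sites the median 95% interval reached 0.648 on the log2 scale to each side for the H3K4me3 fold, against 0.175 for its covered length and 0.240 for the H3K27me3 fold.

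The 0 calls of the H3K4me3 fold became 1 with a mean fold weighted by length, 49 with covered length and 19 with the peak p-value, and stayed at 0 without any single library. The 0 calls of the H3K27me3 fold became 3 without centring, 4 with a peak in at least 2 libraries of each group, 7 with covered length and 4 with the peak p-value, and were 0 to 2 without single libraries, with 2 without V16D/CTL replicate 3. The 49 calls of H3K4me3 covered length were 33 without centring and 20 to 49 without single libraries, falling to 31 and 24 without V16D/CTL replicates 1 and 3 and to 20 and 22 without V16D/H19 replicates 1 and 2. The 7 calls of H3K27me3 covered length were 21 without centring and 0 to 11 without single libraries: 0 without any V16D/CTL replicate, 3 without V16D/H19 replicate 1 and 11 without V16D/H19 replicate 3. The cause was not tested.

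Same-numbered libraries did not deviate together (correlations across sites between −0.0097 and 0.026), so the numbers were not taken to pair the samples. With a replicate block the calls were 0 and 2 for the H3K4me3 and H3K27me3 fold and 34 and 10 for covered length.

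The log2 difference of the fold at the CDKN2A gene start was −0.063 with the peak p-value and ranged from −0.18 (without V16D/CTL replicate 3) to 0.46 without single libraries, at −0.09 without V16D/H19 replicate 3. At CDKN2B it ranged from −0.041 to 0.47, and at CDKN1A it was 0.073 for covered length. The log2 difference of the covered length ranged without single libraries from −0.067 to 0.069 at RB1, −0.0063 to 0.037 at the CDKN2A gene start, −0.028 to 0.074 at CDKN2B and −0.028 to 0.019 at MYC. The difference in the number of members with a peak, V16D/H19 minus V16D/CTL, was 0.333 for H3K4me3 (0 to 0.5 without single libraries, 0 without V16D/CTL replicate 2) and −0.333 for H3K27me3 (0 with lists of equal length, −0.5 to 0 without single libraries). At a −log10 q of at least 5 these were 1 and −0.667, and no H3K27me3 was left at CDKN2A or CDKN2B. In lists of equal length the CDKN2B peak was also lost.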
